A study of Mus musculus with 6 samples.

Results

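The 10 genes examined encode the enzymes that write, copy and remove DNA methylation and the pair of dehydrogenases that supply the removal step. They were taken by name: Dnmt1 and Uhrf1 for maintenance of methylation, Dnmt3a, Dnmt3b and Dnmt3l for its placement on unmethylated DNA, Tet1, Tet2 and Tet3 for oxidation of methylcytosine, and Idh1 and Idh2 for the supply of 2-oxoglutarate. All 10 of 10 were in the table of 55421 genes and all 10 were among the 18375 genes with enough counts to test. The RNA came from bone marrow leukemia cells of C57BL/6 mice, with 3 libraries of AE9a-Ddit4+/+ and 3 of AE9a-Ddit4-/- cells. Both groups carried AML1-ETO9a (AE9a), a shortened AML1-ETO fusion protein delivered by a retrovirus with GFP into c-Kit+ hematopoietic stem and progenitor cells of young adult donors, and passed through irradiated recipients. The groups differ by label only in the donors' Ddit4 gene, whose product restrains mTOR under stress, and the labels also state culture in IMDM with 10% FBS. The cells were taken from transplanted mice (n = 3 in each group). Whether each library is 1 mouse, and whether the mice of a group carry separate leukemias or 1 leukemia passed on, is not spelled out, so p values measure the spread between libraries, which may be technical.

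DNA methylation is placed on cytosine in CpG dinucleotides. DNMT1, brought to replicated DNA by UHRF1, copies the marks of the parent strand, whereas DNMT3A and DNMT3B methylate new sites and DNMT3L, which has no catalytic activity of its own, stimulates them. TET enzymes oxidise methylcytosine with 2-oxoglutarate as co-substrate, a compound that IDH1 (cytosol) and IDH2 (mitochondria) make from isocitrate. DNMT3A, TET2, IDH1 and IDH2 are recurrently mutated in human acute myeloid leukemia, and mutant IDH enzymes make 2-hydroxyglutarate, which inhibits TET enzymes. The values below are amounts of transcript. Methylation itself, enzyme activity and metabolites were not measured.

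The upstream sequences of the 4 members that passed the test of the genotypes are shown because CpG dinucleotides, the substrate of these enzymes, are unevenly spread over their own promoters. The letters come from RefSeq on GRCm38.p6, run 5′ to 3′ on the gene's strand, end 1 base before an annotated start site and have each CpG in capitals. The Dnmt3b stretch is chr2:153649199-153649448 (plus strand) and the Tet1 stretch chr10:62887325-62887412 (minus strand). For Tet1 only the longest run free of its own annotated exons is shown, 88 bases. The Tet2 stretch is chr3:133544391-133544640 (minus strand) and the Tet3 stretch chr6:83441679-83441928 (minus strand).
Dnmt3b: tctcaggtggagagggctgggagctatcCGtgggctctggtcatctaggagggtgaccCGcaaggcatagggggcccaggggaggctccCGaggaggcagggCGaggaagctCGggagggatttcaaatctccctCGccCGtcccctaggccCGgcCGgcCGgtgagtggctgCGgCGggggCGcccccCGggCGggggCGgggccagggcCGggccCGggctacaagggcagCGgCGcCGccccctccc
Tet1: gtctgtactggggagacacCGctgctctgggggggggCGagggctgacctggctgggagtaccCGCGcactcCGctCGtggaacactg
Tet2: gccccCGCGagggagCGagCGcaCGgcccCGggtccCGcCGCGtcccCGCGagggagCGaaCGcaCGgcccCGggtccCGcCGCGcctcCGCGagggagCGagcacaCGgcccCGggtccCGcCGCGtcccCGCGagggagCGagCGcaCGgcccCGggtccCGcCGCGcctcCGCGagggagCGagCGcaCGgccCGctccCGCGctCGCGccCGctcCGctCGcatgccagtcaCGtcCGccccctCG
Tet3: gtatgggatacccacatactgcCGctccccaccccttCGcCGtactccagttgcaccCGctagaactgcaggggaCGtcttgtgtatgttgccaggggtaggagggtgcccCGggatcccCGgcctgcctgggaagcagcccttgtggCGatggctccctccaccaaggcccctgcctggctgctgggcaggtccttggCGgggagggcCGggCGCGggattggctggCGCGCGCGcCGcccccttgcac
The Tet2 stretch held 51 CpG in 250 bases, the Dnmt3b stretch 21 and the Tet3 stretch 17, and the shorter Tet1 stretch held 6. Over 32851 windows of 250 bases upstream of annotated starts the median was 6 CpG. The like window of Tet1, 250 bases with 100 in its own exons, held 15 CpG. The letters TGTGGT, which the RUNX family binds (RUNX1 is the DNA-binding part of AML1-ETO), were sought on both strands. They were in 1 of the 18 windows of the 10 members, a Uhrf1 window, and in 14.05% of all windows.

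Libraries held 62141558 to 72717681 counts. Levels are given as CPM (counts scaled to a TMM-adjusted library total of 1e+06), changes as log2 fold changes of AE9a-Ddit4-/- over AE9a-Ddit4+/+ with their standard error (SE) from edgeR's quasi-likelihood fit over all genes, and p values as adjusted by Benjamini-Hochberg over the 18375 genes. The threshold was an adjusted p below 0.05. Of all genes tested 30.1% were past it, 19.4% higher and 10.7% lower in AE9a-Ddit4-/- libraries. Ddit4, the deleted gene, was at 228, 161 and 342 CPM in AE9a-Ddit4+/+ and at 84.9, 77.7 and 85.9 CPM in AE9a-Ddit4-/- (log2 fold change -1.56, SE 0.28, adjusted p = 0.00635). Its reads were lower but did not vanish, and since counts are per gene, reads from a deleted part cannot be told from the rest.

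The libraries stood apart in more than the genotype of Ddit4, and this bears on every member. In AE9a-Ddit4+/+ libraries some defining markers of the labelled cells were low: Kit was at 14.6 to 31.6 CPM against 304 to 509 CPM in AE9a-Ddit4-/-, Cd34 at 2.26 to 9.83 against 493 to 558 CPM, and Runx1t1, the mouse gene of the ETO partner, at 6.47 to 18.1 against 69.9 to 206 CPM. Ptprc was at 60.7 to 170 against 453 to 667 CPM and Myb at 127 to 146 against 215 to 239 CPM. Spi1 went the other way, at 144 to 192 against 86.6 to 148 CPM (log2 fold change -0.56, edgeR adjusted p = 0.116). Of 6 such markers 5 were higher and 0 lower past the threshold, with summed levels of 403 to 545 CPM and 1757 to 2236 CPM. Erythroid markers went the other way, 11 of 11 lower, with sums of 7670 to 14720 CPM in AE9a-Ddit4+/+ and 354 to 847 CPM in AE9a-Ddit4-/-. Of 12 neutrophil markers 5 were lower and 0 higher (7523 to 12414 against 1940 to 5412 CPM), whereas of 9 monocyte and macrophage markers 2 were higher and 0 lower (183 to 376 against 148 to 463 CPM). Megakaryocyte and platelet markers were higher for 7 and lower for 1 of 8 tested (96.0 to 158 against 2186 to 3030 CPM). T and NK markers were higher for 7 of 8 (10.7 to 48.9 against 69.1 to 102 CPM) and B cell markers for 6 of 7 (1.05 to 4.91 against 64.6 to 128 CPM). Those of stroma and endothelium were higher for 4 of 7 (6.25 to 9.91 against 158 to 191 CPM). Most of this last sum in AE9a-Ddit4-/- libraries 1, 2 and 3 was Pecam1, at 123, 143 and 144 CPM. Col1a1, Col1a2 and Lepr did not pass the threshold. Nkg7, the T and NK marker that did not pass, was at 47.2 CPM in AE9a-Ddit4+/+ library 1. In AE9a-Ddit4-/- libraries Nkg7 was at 38.1, 58.7 and 61.0 CPM, a large part of the T and NK sum. Ncr1 and Ms4a1 were at 0 counts in all 3 AE9a-Ddit4+/+ libraries. In AE9a-Ddit4-/- libraries Ms4a1 had 156, 63 and 334 counts, but Ncr1 only 0, 5 and 9, so no difference in Ncr1 can be read. The Y-linked Ddx3y was at 0.0589 to 0.0774 CPM in AE9a-Ddit4+/+ and at 88.2 to 125 CPM in AE9a-Ddit4-/- libraries, and Xist at 566 to 1032 against 20.3 to 129 CPM, so that genotype and sex of the cells cannot be told apart. Mitochondrial genes took 5.03% to 7.90% of counts in AE9a-Ddit4+/+ and 11.3% to 16.4% in AE9a-Ddit4-/-. The part of these differences in the members' values was not tested, and in bulk libraries fewer cells of a type and less RNA per cell cannot be told apart.

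To see whether the machinery of DNA methylation differed between the genotypes, the 10 members were read from that fit. Dnmt3b and all 3 Tet genes rose in AE9a-Ddit4-/- libraries, and none of the other 6 members passed the threshold. Thus 4 of 10 were higher and 0 lower, beside 19.4% and 10.7% of all genes. The groups did not overlap for 5 members, all higher in AE9a-Ddit4-/-, beside 50.1% of all genes without overlap, 27.9% in that direction and 22.2% in the other. The median log2 fold change was 0.84 over the members and 0.04 over all genes tested.

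**Figure D1:**
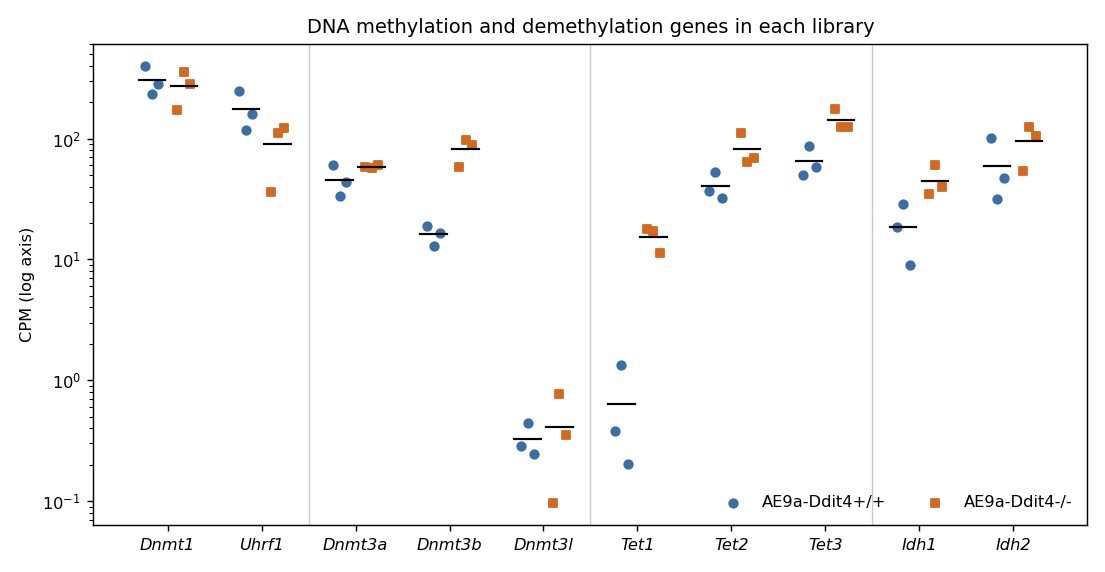
CPM on a log axis for each member in each library, circles for the 3 AE9a-Ddit4+/+ and squares for the 3 AE9a-Ddit4-/- libraries, with a line at each group's mean. Tet1 is at 0.201 to 1.33 CPM in the circles and at 11.4 to 17.9 CPM in the squares, Dnmt3b at 12.8 to 19.06 and 57.6 to 97.9 CPM, whereas the circles and squares of Dnmt1, Uhrf1, Dnmt3a, Dnmt3l and Idh2 overlap.

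Among the enzymes of maintenance, Dnmt1 (ENSMUSG00000004099, GRCm38 chromosome 9, 20907209 to 20959888, minus strand) was at 400, 236 and 282 CPM in AE9a-Ddit4+/+ libraries 1, 2 and 3. In the AE9a-Ddit4-/- libraries it was at 173, 356 and 280 CPM. The groups overlapped widely, with the lowest and the second highest value both in AE9a-Ddit4-/-, and the log2 fold change was -0.18 (SE 0.31, 95% interval -0.91 to 0.55, adjusted p = 0.694). Its sign turned when library 1 of either genotype was left out, to 0.057 (AE9a-Ddit4+/+) and 0.062 (AE9a-Ddit4-/-). Uhrf1 (ENSMUSG00000001228, chromosome 17, 56303321 to 56323486, plus strand), which reads hemimethylated DNA for DNMT1, was at 249, 117 and 159 CPM in AE9a-Ddit4+/+. It was at 36.2, 110 and 123 CPM in AE9a-Ddit4-/- libraries, of which the first stood far below the other two. The change of -0.96 (SE 0.47, 95% interval -2.07 to 0.15, adjusted p = 0.166) missed the threshold.

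Both genes follow DNA replication in most cells, so they were set beside 29 other S phase genes. Of these 0 rose and 11 fell (37.9%, beside 10.7% of all genes tested), with a median log2 fold change of -1.08. The count rests on single libraries: it was 2 and 3 when the first and the third AE9a-Ddit4+/+ library were left out, and 6 and 7 for the first and the second of AE9a-Ddit4-/-. Rrm2 and Rrm1, subunits of ribonucleotide reductase, fell by 2.69 and 1.75 on the log2 scale (SE 0.52 and 0.41, adjusted p = 0.008 and 0.0166), and Slbp, which binds histone mRNA, fell by 1.37 (SE 0.28, adjusted p = 0.0102). Over the alternatives the adjusted p reached 0.0731 for Rrm1, 0.0333 for Rrm2 and 0.0447 for Slbp. The summed level of the list was 6378, 3240 and 5271 CPM in AE9a-Ddit4+/+ and 1533, 3159 and 2975 CPM in AE9a-Ddit4-/- libraries. AE9a-Ddit4-/- library 1 was thus the lowest for this sum, for Uhrf1 and for Dnmt1. Inside a library, Dnmt1 was higher relative to the mean log2 level of these genes in AE9a-Ddit4-/- (2.34 ± 0.265) than in AE9a-Ddit4+/+ (1.44 ± 0.213, SD, n = 3 each), and the groups did not overlap. The log2 ratio of Dnmt1 to Uhrf1 counts was 0.68, 1.02 and 0.83 in AE9a-Ddit4+/+ and 2.25, 1.69 and 1.19 in AE9a-Ddit4-/- libraries, again without overlap. Each of these ratios gave p = 0.1 in an exact two-sided permutation test, its minimum for groups of 3, and 0.18 after adjustment over the 9 ratios and shares computed.

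Of the enzymes that methylate new sites, Dnmt3b rose 5.02-fold by the means and Dnmt3a did not pass the threshold. Dnmt3b (ENSMUSG00000027478, chromosome 2, 153649450 to 153687730, plus strand) was at 19.06, 12.8 and 16.6 CPM in AE9a-Ddit4+/+ and at 57.6, 97.9 and 88.1 CPM in AE9a-Ddit4-/- libraries. The lowest AE9a-Ddit4-/- library was well above the highest AE9a-Ddit4+/+ library. Means were 16.2 ± 3.13 and 81.2 ± 21.0 CPM (SD, n = 3 each), and the log2 fold change was 2.33 (SE 0.28, 95% interval 1.68 to 2.97, edgeR adjusted p = 0.00136). Dnmt3b passed the threshold under each of the 15 alternatives run, with an adjusted p of at most 0.0169. Dnmt3a (ENSMUSG00000020661, chromosome 12, 3806007 to 3914443, plus strand) was at 60.1, 33.3 and 43.5 CPM in AE9a-Ddit4+/+ and at 58.1, 57.4 and 60.3 CPM in AE9a-Ddit4-/- libraries. Its 3 AE9a-Ddit4-/- values lay within 3 CPM of each other and inside or just beside the AE9a-Ddit4+/+ range, and its log2 fold change was 0.36 (SE 0.24, 95% interval -0.21 to 0.93, adjusted p = 0.302).

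The ratio of the pair did not overlap between the genotypes. The log2 ratio of Dnmt3a to Dnmt3b counts was 1.66, 1.37 and 1.39 in AE9a-Ddit4+/+ and 0.01, -0.77 and -0.55 in AE9a-Ddit4-/- libraries. Dnmt3a counts exceeded Dnmt3b counts in each AE9a-Ddit4+/+ library, and the pair was level or reversed in each AE9a-Ddit4-/- library (difference -1.91, exact permutation p = 0.1, adjusted 0.18). These are counts per gene. Levels per kilobase of exon use the union of all annotated exons, 16.6 kb for Dnmt3a and 5.11 kb for Dnmt3b. A gene whose transcripts are shorter than its union reads too low, so such levels compare genes only roughly. On this scale Dnmt3b was at 3.17 ± 0.612 and Dnmt3a at 2.74 ± 0.815 CPM in AE9a-Ddit4+/+, with overlapping ranges, and at 15.9 ± 4.11 and 3.52 ± 0.0917 CPM in AE9a-Ddit4-/- (SD, n = 3 each). Dnmt3l (ENSMUSG00000000730, chromosome 10, 78041947 to 78063622, plus strand) was barely transcribed, with 18, 30 and 16 counts in AE9a-Ddit4+/+ and 6, 47 and 26 counts in AE9a-Ddit4-/- libraries. The limit of detection was set at 12 counts, since low values in this table pile up at multiples of 4, and it covers counting error only. The change of Dnmt3l (0.32, SE 0.80, 95% interval -1.53 to 2.18, adjusted p = 0.787) could not be resolved at this depth, and it turned to -0.55 without AE9a-Ddit4-/- library 2.

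**Figure D2:**
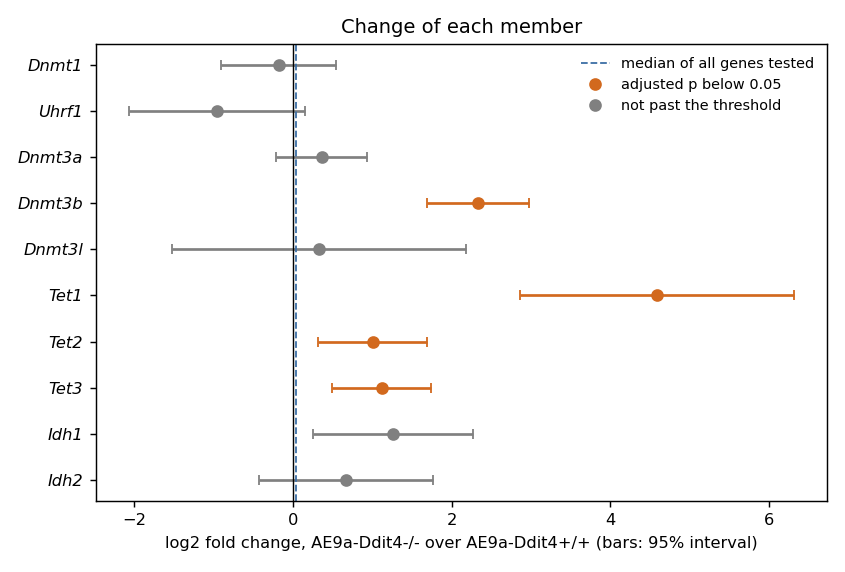
Log2 fold change of each member, AE9a-Ddit4-/- over AE9a-Ddit4+/+, with 95% intervals from edgeR over 3 libraries a group, colored where the adjusted p is below 0.05, and a dashed line at the median of all genes tested (0.04). Dnmt3b and the 3 Tet genes are colored, Tet1 lies farthest from 0 at 4.59, and the interval of Idh1 leaves out 0 although its adjusted p of 0.0623 misses the threshold.

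All 3 genes for methylcytosine oxidation rose, Tet1 by far the most. Tet1 (ENSMUSG00000047146, chromosome 10, 62804570 to 62908996, minus strand), whose protein carries a CXXC domain that binds CpG, had 24, 90 and 13 counts in AE9a-Ddit4+/+ and 1113, 1036 and 836 counts in AE9a-Ddit4-/- libraries. This is 0.380, 1.33 and 0.201 CPM against 17.9, 17.1 and 11.4 CPM. Libraries 1 and 3 of AE9a-Ddit4+/+ were close to the limit of detection, and each AE9a-Ddit4-/- library had at least 836 counts. Means were 0.636 ± 0.605 and 15.4 ± 3.54 CPM (SD, n = 3 each), a 24.3-fold ratio, and the log2 fold change was 4.59 (SE 0.74, 95% interval 2.87 to 6.32, edgeR adjusted p = 0.00414). Tet1 passed the threshold under each of the 15 alternatives (adjusted p at most 0.0183), and its log2 fold change ran from 4.17 to 5.72 when single libraries were left out.

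Tet2 (ENSMUSG00000040943, chromosome 3, 133463679 to 133545139, minus strand), which lacks a CXXC domain, was at 37.0, 52.4 and 32.5 CPM in AE9a-Ddit4+/+ and at 112, 63.8 and 68.7 CPM in AE9a-Ddit4-/- libraries. The groups did not overlap, and AE9a-Ddit4-/- library 1 stood above the other two. Tet2 rose 2.01-fold by the means, with a log2 fold change of 1.01 (SE 0.29, 95% interval 0.32 to 1.69, edgeR adjusted p = 0.0376). It missed the threshold when libraries were scaled by their totals alone (adjusted p = 0.0553). The same held when single libraries were left out, with an edgeR adjusted p of 0.111 without the first and 0.123 without the third AE9a-Ddit4+/+ library, and of 0.106 without the first and 0.058 without the third AE9a-Ddit4-/- library. Tet3 (ENSMUSG00000034832, chromosome 6, 83362373 to 83459084, minus strand) was at 49.6, 87.3 and 58.6 CPM in AE9a-Ddit4+/+ and at 175, 124 and 125 CPM in AE9a-Ddit4-/-, with no overlap and again the highest value in AE9a-Ddit4-/- library 1. Tet3 rose 2.17-fold by the means (log2 fold change 1.12, SE 0.27, 95% interval 0.49 to 1.74, edgeR adjusted p = 0.0183). Its edgeR adjusted p was 0.0585 without the first and 0.0694 without the third AE9a-Ddit4+/+ library, and 0.0589 without the first AE9a-Ddit4-/- library.

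The ratio of Tet2 to Tet3 overlapped between the genotypes, whereas the share of Tet1 did not. The log2 ratio of Tet2 to Tet3 counts was -0.67 ± 0.221 in AE9a-Ddit4+/+ and -0.82 ± 0.161 in AE9a-Ddit4-/- (SD, n = 3 each, exact permutation p = 0.4, adjusted 0.45), with overlap. Of the summed Tet level per exon length, Tet1 took 0.483%, 1.02% and 0.248% in AE9a-Ddit4+/+ and 6.32%, 8.97% and 5.98% in AE9a-Ddit4-/- libraries. Tet1 was nevertheless the smallest of the 3 shares in each of the 6 libraries. The share of Tet3 was 61.3% ± 3.64 and 59.5% ± 1.89, and that of Tet2 38.1% ± 3.62 and 33.4% ± 2.80 (SD, n = 3 each), with overlap for both.

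**Figure D3:**
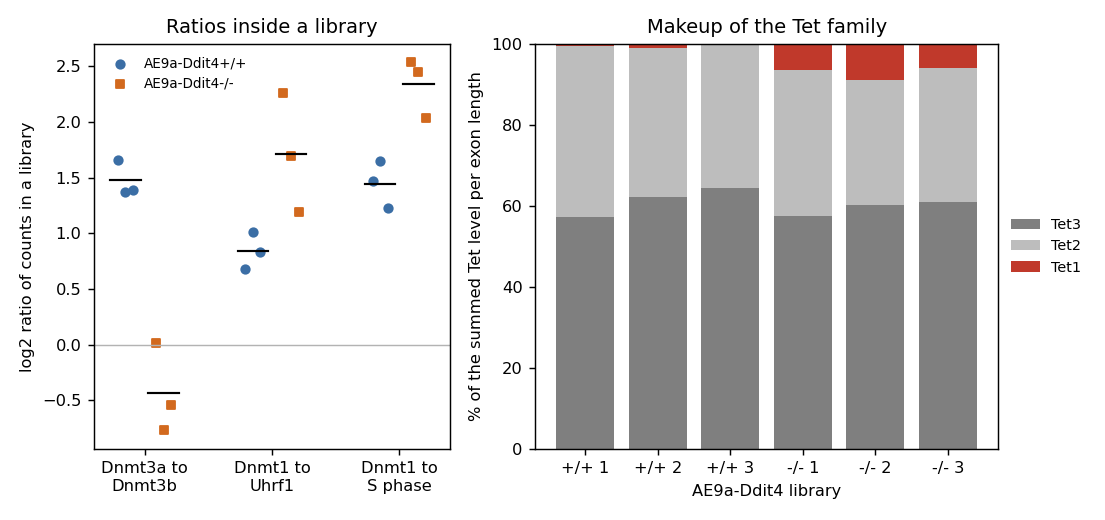
Left, log2 ratios of counts inside each library, circles for AE9a-Ddit4+/+ and squares for AE9a-Ddit4-/-, with lines at the group means; right, each Tet gene's percent of the summed Tet level per exon length in each library. The Dnmt3a to Dnmt3b ratio averages 1.47 in the circles and -0.44 in the squares, and Tet1 takes at most 1.02% of a bar in AE9a-Ddit4+/+ and at least 5.98% in AE9a-Ddit4-/-.

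The enzymes that supply 2-oxoglutarate did not pass the threshold. Idh1 (ENSMUSG00000025950, chromosome 1, 65158616 to 65186500, minus strand) was at 18.5, 28.6 and 8.93 CPM in AE9a-Ddit4+/+ and at 34.6, 59.9 and 39.9 CPM in AE9a-Ddit4-/- libraries. The groups did not overlap, but the AE9a-Ddit4+/+ values were widely spread, and the log2 fold change of 1.26 (SE 0.43, 95% interval 0.26 to 2.27) had an edgeR adjusted p of 0.0623. DESeq2's Wald test (1.28, adjusted p = 0.0223), counts divided by 4 (1.28, 0.0473), a filter of at least 10 counts in every library (1.33, 0.0497) and the fit without AE9a-Ddit4+/+ library 2 (1.71, 0.0226) put it past the threshold. Over the 507 genes of chromosome 1 with a mean log2 CPM above 4, the median change lay 0.40 (log2) above that of all such genes. For the chromosomes of the other members this shift was between -0.09 and 0.04, and its part in the value of Idh1 was not tested. Idh2 (ENSMUSG00000030541, chromosome 7, 80094846 to 80115392, minus strand) was at 100, 31.8 and 47.3 CPM in AE9a-Ddit4+/+ and at 53.9, 126 and 105 CPM in AE9a-Ddit4-/- libraries. The spread inside each group was as wide as the difference between them (log2 fold change 0.67, SE 0.47, 95% interval -0.43 to 1.77, adjusted p = 0.322).

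Per kilobase of exon, with the same limit of union lengths, the order of the members differed between the genotypes. In AE9a-Ddit4+/+ libraries Dnmt1 (41.5 ± 11.4 CPM per kb), Uhrf1 (41.0 ± 15.9) and Idh2 (23.1 ± 13.8) came first (SD, n = 3), each overlapping its neighbour. A gap without overlap separated them from Idh1 (6.73), Tet3 (3.90), Dnmt3b (3.17), Dnmt3a (2.74) and Tet2 (2.41), whose neighbours overlapped. Dnmt3l (0.109) and Tet1 (0.0411) followed after a further gap and overlapped each other. In AE9a-Ddit4-/- libraries Idh2 (36.7), Dnmt1 (36.5), Uhrf1 (21.1), Idh1 (16.2) and Dnmt3b (15.9 CPM per kb) formed a chain of overlapping neighbours. Below them Tet3 (8.48), Tet2 (4.83), Dnmt3a (3.52), Tet1 (0.998) and Dnmt3l (0.136) were each separated from the gene above without overlap. Thus Dnmt3b, within the range of its neighbours Tet3 and Dnmt3a in AE9a-Ddit4+/+, lay above both in AE9a-Ddit4-/-.

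The genes around the members were then read from 5 lists of the pathway, in which 81 of 87 genes were tested. Here 11 rose and 14 fell, and the median log2 fold change was -0.21, beside 0.04 over all genes. Over these 81 genes the share past the threshold was 30.9%, close to the 30.1% of all genes. Of them 13.6% were higher and 17.3% lower, beside 19.4% and 10.7%. By list the share ran from 11.1% for partners of the methyltransferases to 46.7% for partners of TET and base excision. It was 38.5% for readers of CpG, 33.3% for the methyl donor cycle and 30.0% for 2-oxoglutarate and 2-hydroxyglutarate metabolism. Whether a single list differs from all genes was not tested, so the counts below only describe the lists. The 25 calls became 12 and 13 without AE9a-Ddit4+/+ library 1 and library 3, and 15 without AE9a-Ddit4-/- library 1. Among partners of the methyltransferases 1 of 18 rose and 1 fell (median -0.26). Ehmt2, a histone H3 lysine methyltransferase, rose from 130 ± 12.3 to 258 ± 75.2 CPM (log2 fold change 0.98, SE 0.24, adjusted p = 0.0185). Pclaf, which binds PCNA and helps to bring DNMT1 to replicating DNA, fell from 122 ± 57.6 to 24.7 ± 15.8 CPM (-2.31, SE 0.54, adjusted p = 0.0171). Leaving out AE9a-Ddit4+/+ library 1, 2 or 3 gave 0, 4 and 1 calls in this list, and leaving out the second of AE9a-Ddit4-/- gave 1. The adjusted p of Ehmt2 reached 0.0694 and that of Pclaf 0.0587 over the alternatives. Among readers of methylated or unmethylated CpG and their relatives 2 of 13 rose and 3 fell (median -0.05). Zbtb4, a zinc finger protein that binds methylated CpG, rose by 2.33 (SE 0.56, adjusted p = 0.0183) on the log2 scale. Mbd6, listed as a relative of the MBD readers, rose by 0.83 (SE 0.25, adjusted p = 0.0422). Mbd2, a methyl-CpG binding subunit of the NuRD complex, was at 267, 253 and 253 CPM in AE9a-Ddit4+/+ and at 103, 81.9 and 106 CPM in AE9a-Ddit4-/- libraries, without overlap (log2 fold change -1.41, SE 0.18, adjusted p = 0.00153). Cxxc1, which binds unmethylated CpG for a histone H3 lysine 4 methyltransferase, fell by 1.02 (SE 0.16, adjusted p = 0.00396) and Mbd1 by 0.77 (SE 0.21, adjusted p = 0.0315). The 5 calls of the readers became 3 and 2 when AE9a-Ddit4+/+ library 1 and 3 were left out in turn, and 2 and 3 for the first and the second of AE9a-Ddit4-/-. Mbd2 and Cxxc1 passed under every alternative at 0.05, whereas the adjusted p reached 0.0932 for Zbtb4, 0.136 for Mbd6 and 0.0964 for Mbd1.

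Partners of TET and the base excision genes that replace oxidised cytosine had 5 of 15 genes higher and 2 lower (median 0.04). Cxxc5, a CXXC domain protein that binds TET2, was at 7.96, 3.79 and 3.22 CPM in AE9a-Ddit4+/+ and at 60.5, 53.4 and 47.3 CPM in AE9a-Ddit4-/- libraries, far apart (log2 fold change 3.43, SE 0.39, adjusted p = 0.00123). Ogt, the O-GlcNAc transferase bound by TET proteins, rose by 1.30 (SE 0.26, adjusted p = 0.00881), and it is X-linked in libraries that differ in sex. Gadd45b rose by 1.45 (SE 0.31, adjusted p = 0.011) whereas its relative Gadd45a, from the same family of stress-induced proteins, fell by 2.21 (SE 0.38, adjusted p = 0.00518). Wt1, a zinc finger factor that recruits TET2, had 537, 344 and 328 counts in AE9a-Ddit4+/+ and 0 in each AE9a-Ddit4-/- library, at least 33.7-fold lower against the limit of 12 counts per library (edgeR adjusted p = 0.000849).

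In the methyl donor cycle, which makes S-adenosylmethionine, 1 of 15 rose and 4 fell (median -0.37). Mat2b, a subunit of methionine adenosyltransferase, fell by 0.76 (SE 0.18, adjusted p = 0.0154), Mtap, of methionine salvage, by 1.68 (SE 0.40, adjusted p = 0.0173) and Ahcyl2 by 1.55 (SE 0.41, adjusted p = 0.0254). These 5 calls are not firm: 0 and 2 were left after removal of AE9a-Ddit4+/+ library 1 and 3 in turn, and 1, 3 and 2 after removal of each AE9a-Ddit4-/- library. The adjusted p reached 0.076 for Mat2b, 0.0556 for Mtap and 0.0844 for Ahcyl2. Of 20 other genes of 2-oxoglutarate and 2-hydroxyglutarate metabolism and TET cofactors 2 rose and 4 fell (median -0.31). Slc23a2, a transporter of vitamin C, which keeps TET enzymes active, was at 8.86, 11.1 and 6.20 CPM in AE9a-Ddit4+/+ libraries. In AE9a-Ddit4-/- libraries it was at 75.3, 69.9 and 65.1 CPM, without overlap (log2 fold change 3.01, SE 0.27, adjusted p = 0.000502). Bcat1, a transaminase that uses 2-oxoglutarate, had 8, 0 and 1 counts in AE9a-Ddit4+/+ and 46, 188 and 175 in AE9a-Ddit4-/- libraries, at least 11.2-fold higher against the limit of 12 counts per library (edgeR adjusted p = 0.013). Citrate synthase (Cs) fell by 1.86 (SE 0.22, adjusted p = 0.00122), the aspartate transaminase Got1 by 1.69 (SE 0.40, adjusted p = 0.0177) and Dlst, of the 2-oxoglutarate dehydrogenase complex, by 0.73 (SE 0.18, adjusted p = 0.0207). The 6 calls of this list became 3 without AE9a-Ddit4+/+ library 3, and the adjusted p reached 0.0726 for Bcat1, 0.0622 for Got1 and 0.0791 for Dlst over the alternatives, but 0.015 at most for Cs.

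**Figure D4:**
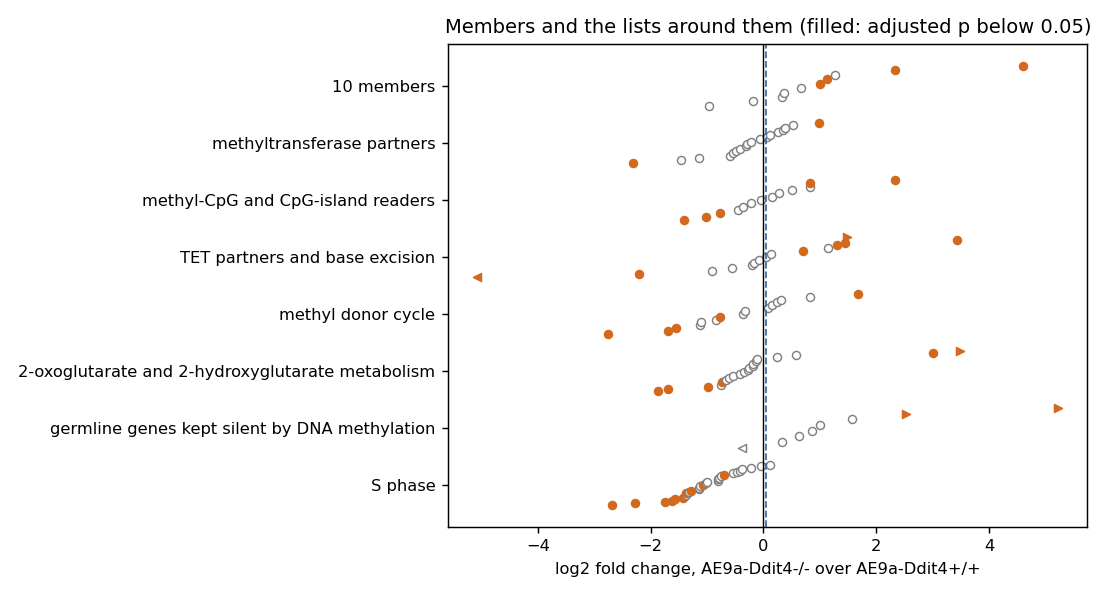
Log2 fold change (AE9a-Ddit4-/- over AE9a-Ddit4+/+) of each tested gene of the members and the lists around them, filled where the adjusted p is below 0.05, with triangles at the bound where all libraries of a group were at or under 12 counts and a dashed line at the median of all genes tested (0.04). The S phase genes sit mostly below 0, with a median of -1.08 and 11 of 29 filled, while the members' 4 filled points are all above 0.

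Genes of the germline that promoter methylation keeps silent in somatic cells were read as a last comparison, since their transcripts can appear when methylation at their promoters is lost. Of 22 such genes 10 had 0 counts in all 6 libraries and 8 could be tested, of which 2 were higher and 0 lower. These shares of 25% and 0%, beside 19.4% and 10.7% of all genes, do not set the list apart. Not all of the list was silent in AE9a-Ddit4+/+ libraries, where Piwil2 had 77, 104 and 41 counts and Dpep3 43, 179 and 51. Methylation at these promoters was not measured. Brdt, a testis bromodomain protein, had 8, 4 and 4 counts in AE9a-Ddit4+/+ and 736, 279 and 317 counts in AE9a-Ddit4-/- libraries, at least 37.5-fold higher (edgeR adjusted p = 0.00103). Tdrkh, of the piRNA pathway, had 0, 0 and 8 against 33, 97 and 78 counts, at least 5.77-fold higher (edgeR adjusted p = 0.0327). Brdt passed under every alternative in which it was tested, while Tdrkh missed the threshold without any single library other than AE9a-Ddit4+/+ library 3 (edgeR adjusted p up to 0.0937), and the count of the list was 1 when the first or the second library of either genotype was removed. The summed levels of the list were 3.51 to 5.78 CPM in AE9a-Ddit4+/+ and 11.5 to 20.9 CPM in AE9a-Ddit4-/- libraries.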

How the data were processed

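RNA had been sequenced by the authors on an Illumina instrument. The library kit was directional with rRNA depletion by the methods but an mRNA kit by the labels. The authors deposited 1 table of counts per gene for 6 libraries, as whole numbers, not normalized. The submitters' processing notes name GRCm38 and mm10. The aligner, the counting tool, the annotation and the use of strand are not given in the sources used here. Without known strand, reads of antisense partners cannot be told apart: Dnmt3aos, Aire and Gm42567 share exon bases with Dnmt3a, Dnmt3l and Tet2 but held 4, 8 and 0 counts over all libraries. Low counts piled up at multiples of 4, so the limit of detection was set at 12 counts (0.163 to 0.198 CPM, counting error only). Of 55421 identifiers 55154 matched GENCODE M21 on GRCm38 by identifier, which gave positions and union exon lengths. Promoter letters came from RefSeq, in which all 10 members matched.

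Genes were filtered with filterByExpr (18375 left), scaled by TMM and tested in R 4.3.3 with edgeR 4.0.16 (glmQLFit and glmQLFTest, robust), with genotype as the only term and Benjamini-Hochberg adjustment at 0.05. The study's methods name no test for these counts. Intervals are 95%. Where all libraries of a group were at or under 12 counts, a bound against that limit replaces the fitted fold change. Ratios inside a library used a pseudocount of 0.5 and an exact two-sided permutation test. The scripts were tested on simulated counts. Libraries of a group differed by more than counting noise, so none is a copy of another, which does not show that they are biological replicates. Alternatives were RLE scaling, library totals alone, no low-count filter, at least 10 counts in every library, a block of the replicate number, a threshold of 0.01, removal of mitochondrial genes, DESeq2 1.42.0 and each library left out, and, chosen after seeing the data, counts divided by 4. Members and gene lists were chosen with earlier results of these data known. Named are all members, Ddit4, genes on which a member's result turns, markers at 0 in a group and, per list, up to 3 higher and 3 lower genes with the smallest adjusted p past the threshold. A few list genes that this rule names are not reported here.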

Additional observations from a re-analysis of the deposited data

How the results depend on the processing

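Dnmt3b and Tet1 passed the threshold of the test under each of the 15 alternatives, Uhrf1, Dnmt3a, Dnmt1 and Idh2 under none, Dnmt3l under none of those in which it could be tested (not with at least 10 counts in every library or counts divided by 4), and the cause of the shifts below was not tested except where fewer libraries or a stricter threshold is itself the change. The number of members past the threshold was 4, and it was 2 with the replicate block and 2 at an adjusted p below 0.01, with 2 to 5 when single libraries were left out. Dnmt1 was reversed without AE9a-Ddit4+/+ or AE9a-Ddit4-/- library 1 (0.057 and 0.062; leave-one-out range -0.47 to 0.062), and Dnmt3l with the block (-0.0072) and without AE9a-Ddit4-/- library 2 (-0.55; range -0.55 to 0.79). Tet2 missed the threshold with library totals alone (0.95), with the block (0.99) and at 0.01 (1.01; range 0.71 to 1.23), and Tet3 with the block (1.14) and at 0.01 (1.12; range 0.94 to 1.39). Idh1 passed it with at least 10 counts in every library (1.33), counts divided by 4 (1.28) and DESeq2 (1.28; range 0.93 to 1.71). The 25 called genes of the 5 pathway lists became 9 with the block and 8 at 0.01 (range 12 to 27, lowest without AE9a-Ddit4+/+ library 1), and the 2 germline calls became 1 with the block and at 0.01 (range 1 to 2). With at least 10 counts in every library neither Brdt nor Tdrkh could be tested, and the 1 germline call under that filter was another gene of the list. The 11 lower S phase genes became 2 with the block and 1 at 0.01 (range 2 to 15). Over all genes the 5535 calls became 2964 with the block and 2676 at 0.01 (range 3840 to 6021). The 3560 higher genes became 2341 with at least 10 counts in every library, 2177 with the block and 1964 at 0.01, and the 1975 lower genes became 787 with the block, 712 at 0.01 and 1168, 1089 and 1157 without AE9a-Ddit4+/+ library 1, AE9a-Ddit4+/+ library 3 and AE9a-Ddit4-/- library 1. DESeq2 called 4593 higher and 2425 lower. The replicate numbers showed no pairing: deviations from the group means correlated at -0.17, -0.19 and -0.05 between libraries of the same number. No library correlated best with its own number. Over all pairs the correlations were weak, from -0.19 to 0.18. With 3 libraries a group they cannot tell whether a number marks shared handling.

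With 12 counts as the limit, changes of Dnmt3l and of Tet1 in AE9a-Ddit4+/+ rest on few counts. The number of libraries limits the other members.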

Other observations

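Several genes of the pathway were too low to test. Cxxc4, a CXXC domain partner of TET2, had 27, 8 and 8 counts in AE9a-Ddit4+/+ and 0 in each AE9a-Ddit4-/- library. Mat1a, the liver form of methionine adenosyltransferase, and Dppa3, which protects maternal methylation in the early embryo, had 0 counts in all 6 libraries. Bhmt, a liver enzyme of methionine synthesis, had 5 counts in AE9a-Ddit4-/- library 1 and 0 in the other 5 libraries. Cxxc4, Mat1a, Dppa3 and Bhmt were chosen after their values were seen.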
